A study of Homo sapiens with 19 samples.

Results

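The genes described here encode proteins of 2 filament systems: 10 genes, chosen by name, of 22760 with spliced reads. KRT8, KRT18, KRT19, KRT17 and KRT10 are keratins, VIM encodes vimentin, NES encodes nestin, and LMNA, LMNB1 and LMNB2 encode the nuclear lamins. Values are reads that cross annotated introns (GENCODE 29, GRCh38) of each gene, given as CPM, the read count scaled to the library's total of such reads that belong to a single gene. All 10 genes had reads somewhere in the 19 libraries, which came from ribosomal RNA-depleted RNA.

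Keratins build filaments only as pairs of a type II chain, such as KRT8, with a type I chain, such as KRT18, KRT19, KRT17 or KRT10. KRT8 and KRT18 are the pair of simple epithelia and early embryonic cells, vimentin is the filament protein of mesenchymal cells, and nestin co-assembles with vimentin in neural and other progenitors. Lamins line the inner nuclear membrane. B-type lamins are made in nearly all cells, whereas LMNA is low in pluripotent cells and rises on differentiation, and its transcript is spliced and cleaved at its 3′ end into lamin A or lamin C.

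A375 is a melanoma line, sequenced as 3 libraries: whole-cell (total) RNA, a nuclear fraction and a cytoplasmic fraction. HEK293, from embryonic kidney, and wild-type HUES66, a human embryonic stem cell line, gave 1 library each, and these 5 libraries have no replicates. Another 14 HUES66 libraries came from cells given doxycycline at 1 µg/ml for 24, 48 or 96 hr. In all but the controls, Cas13d, an RNA-cutting enzyme, was aimed at the splicing regulator RBFOX2. These 14 libraries comprise 3 controls, 3 total knockdowns of RBFOX2 (total KD), 4 knockdowns of its N-short isoforms and 4 of its N-long isoforms. They fall into 4 library sets. The sets of 48 and 96 hr hold 1 library of every condition, whereas at 24 hr the set of replicate 1 lacks a titled control and that of replicate 2 lacks a total KD. The labels do not say that replicates were separate cultures, so p-values measure only the spread between these libraries, which may be technical.

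Libraries held 6499183 to 27937149 junction reads, and the 14 doxycycline-treated ones 9622841 to 14625040. RBFOX2 itself lay at 126 to 133 CPM in controls and 51.1 to 83.3 in total KD (median 80.2). The N-short knockdown left it at 113 to 128 and the N-long knockdown at 76.7 to 92.7 (median 81.5). Of 10 pluripotency markers, 9 had reads in wild-type HUES66, with POU5F1 at 1079 CPM against 0.634 in A375 and 0.556 in HEK293; SOX2 has no intron and stood at 0. Of 7 melanocyte markers, 5 had reads in A375, with MLANA and TYR at 0 there and in both other lines. Their sum was 151 CPM in A375, mostly SOX10 (107) and MITF (41.6), 9.67 in HEK293 and 53.0 in wild-type HUES66, where PMEL alone stood at 50.6 against 0.507 in A375. The 5 kidney markers did not set HEK293 clearly apart: 4 had reads there (sum 44.9, mostly EYA1 at 35.4, with PAX8 at 0) and 5 in A375 (sum 21.4), where WT1 was higher at 6.21 against 3.23. These are bulk libraries, so fewer cells of a type and less RNA per cell cannot be told apart.

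Lamin A and lamin C part at the end of exon 10 of LMNA, a plus-strand gene at chr1:156082573-156140089. Lamin A (transcript LMNA-206) splices exon 10 to exon 11, removing intron 10 at chr1:156137744-156138487. Lamin C (LMNA-207) reads on past the same exon end into a short tail that closes its coding sequence. The junction across intron 10 is the one counted below for the lamin A branch.

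Simple-epithelial keratins differed in their balance between lines. KRT8 (chr12:52897187-52949954, minus strand) stood at 60.1 CPM in A375 (95% Poisson interval 54.8 to 65.8), 464 in HEK293 (450 to 478) and 305 in wild-type HUES66 (298 to 311). Its partner KRT18 (chr12:52948871-52952901, plus strand) stood at 476 in A375 (461 to 491), 218 in HEK293 (208 to 228) and 401 in HUES66 (394 to 409). The orders of the lines were thus opposite for the 2 partners, and none of these intervals overlapped within a gene. Intervals here cover counting error only, since no line has a second untreated library.

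To compare levels between genes, reads were taken per intron, as the median over introns shared by all principal coding transcripts. On that scale KRT18 was 14 times KRT8 in A375 (81.7 against 5.83 CPM per intron), 0.613 times in HEK293 (36.3 against 59.3) and 1.64 times in wild-type HUES66 (68.2 against 41.5). The 14 doxycycline-treated libraries lay between 1.36 and 1.99 times, with a median of 1.73. The A375 fractions gave 12.0 in the nucleus and 11.4 in the cytoplasm, so all 3 A375 libraries lay above every HUES66 library, and HEK293 lay below them.

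Type I keratins KRT19 and KRT17 differed most between lines. KRT19 (chr17:41523617-41528308), found in many ductal and simple epithelia, had 0 reads in A375 total RNA, which allows up to 0.380 CPM, with 1 nuclear and 6 cytoplasmic reads in the fractions. It stood at 55.9 in HEK293 and 75.2 in wild-type HUES66, at least 147-fold and 198-fold above the limit of 3 reads in A375. KRT17 (chr17:41619441-41624842), a keratin of basal and stressed epithelia, had 4368 reads in HEK293 (486 CPM), 4 in A375 and 3 in wild-type HUES66. HEK293 exceeded A375 958-fold (exact 95% interval 374 to 3517) and HUES66 4274-fold (1462 to 20740). KRT17 closely resembles other type I keratins such as KRT14 and KRT16, so its count is uncertain where reads could have been placed on either; this was not tested.

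**Figure D1:**
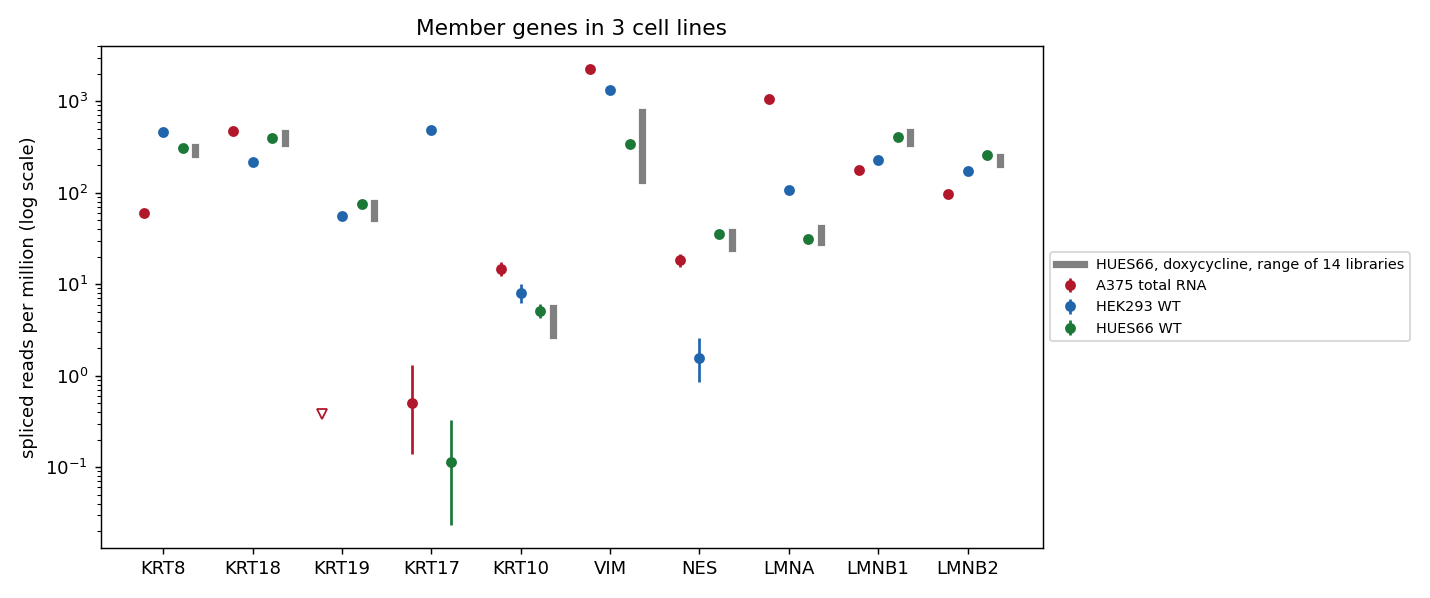
Spliced-read CPM (log scale) of each gene in the total RNA of A375, HEK293 and wild-type HUES66, with 95% Poisson intervals; the open triangle is the limit of 0.380 for KRT19 at 0 reads in A375. Grey bars span the 14 doxycycline-treated HUES66 libraries and are not drawn for KRT17, which had 0 to 4 reads in them. LMNA runs from 1069 in A375 down to 31.5 in HUES66, and KRT17 reaches 486 in HEK293 alone of the 3 lines.

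KRT10 (chr17:40818117-40822595), a keratin of differentiating epidermis, was low in all lines, with 116 reads in A375, 72 in HEK293 and 134 in wild-type HUES66. These reads did not trace its gene body. Its last intron (chr17:40818483-40818786) together with an alternative sharing its downstream end held 98.3% of reads in A375 total RNA and 100% in HEK293, wild-type HUES66 and the summed doxycycline-treated libraries. The alternative intron (chr17:40818483-40818766) took 3.51% of reads at that end in A375 (95% Wilson interval 1.37 to 8.68), 6.94% in HEK293 (3.0 to 15.3) and 8.96% in HUES66 (5.20 to 15), which overlap. KRT10 values therefore describe these 2 introns at the gene's end, and whether the reads come from KRT10 transcripts spliced through the other introns is not settled here.

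Vimentin and nestin were ordered differently from each other. VIM (chr10:17228259-17237593) stood at 2233 CPM in A375 (2200 to 2266), 1338 in HEK293 (1315 to 1363) and 339 in wild-type HUES66 (332 to 346). NES (chr1:156668763-156677397) was highest in wild-type HUES66 at 35.3 (33.1 to 37.7), lower in A375 at 18.3 (15.4 to 21.5) and lowest in HEK293 at 1.56 (0.851 to 2.61), from 14 reads. NES thus stood 22.7-fold lower in HEK293 than in HUES66 (exact interval 13.5 to 41.7), while VIM stood 3.95-fold higher there (3.85 to 4.06). Reads on the 3 NES introns rose from intron 1 to 3 in 19 of 19 libraries (150, 331 and 452 in wild-type HUES66).

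Lamins showed the widest contrast between the A and B types. LMNA stood at 1069 CPM in A375 (1046 to 1092), 108 in HEK293 (102 to 115) and 31.5 in wild-type HUES66 (29.4 to 33.7), so A375 exceeded HUES66 34.0-fold (exact interval 31.6 to 36.5). Both B-type genes had the reverse order. LMNB1 (chr5:126776623-126837020) stood at 176 (167 to 186), 231 (221 to 241) and 407 (399 to 415) in A375, HEK293 and HUES66, and LMNB2 (chr19:2427638-2456996) at 97.6 (90.8 to 105), 172 (163 to 181) and 256 (250 to 263). Per intron, LMNA was 3.99 times the sum of LMNB1 and LMNB2 in A375, 0.264 times in HEK293 and 0.0456 times in wild-type HUES66. The 14 doxycycline-treated libraries gave 0.0422 to 0.0645. The LMNA median includes introns 10 and 11, which lamin C does not use, and their lower counts reduce it.

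Counted at more than 2-fold among genes with at least 20 reads in the 2 libraries together, A375 was higher than HEK293 for 3 of 10 members (KRT18, NES, LMNA; 19.3% of all genes) and lower for 3 (KRT8, KRT19, KRT17; 19.1%). Against wild-type HUES66, A375 was higher for 3 of 9 (KRT10, VIM, LMNA; 22.5%) and lower for 4 (KRT8, KRT19, LMNB1, LMNB2; 22.9%). HEK293 against HUES66 had 3 of 10 higher (KRT17, VIM, LMNA; 20.2%) and 1 lower (NES; 20.2%), and with TMM-scaled library sizes KRT18 and LMNB1 also passed, making 3 lower. These shares rest on 9 or 10 genes and 1 library a line, and nothing particular to the members is read from them.

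In the A375 fractions the same genes differed in their relative levels. Each fraction is scaled to its own total, so a ratio does not give the part of a gene's RNA in either compartment. Of 5 nuclear RNA markers, MALAT1, NEAT1 and PVT1 were higher in the nuclear library (MALAT1 at 73.0 against 2.48 CPM), OIP5-AS1 was lower there (2.80 against 12.8) and MEG3 had 0 reads. The 5 cytoplasmic markers summed to 14530 CPM in the nuclear, 20430 in the total and 32520 in the cytoplasmic library. Of 8 members with at least 20 reads, 3 were past 2-fold higher in the cytoplasmic library (19.8% of all genes) and 1 lower (22.7%). KRT10 was 3.22-fold (exact interval 2.38 to 4.43), KRT8 2.14-fold (1.88 to 2.44) and LMNB2 2.10-fold (1.9 to 2.33) higher in the cytoplasmic library. The last 2 intervals reach below 2-fold. The KRT10 ratio carries the doubt given above about the source of its reads. Counting only introns of its reference transcript, KRT8 was no longer past 2-fold.

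NES was the member past 2-fold higher in the nuclear library, with 33.5 CPM there (29 to 38.4) against 9.60 in the cytoplasmic one (8.32 to 11). The nuclear level was 3.49-fold higher (exact interval 2.86 to 4.26), and the 3 introns had 41, 66 and 96 reads in the nuclear and 38, 71 and 92 in the much deeper cytoplasmic library. VIM had equal CPM in the 2 fractions within counting error, with a cytoplasmic to nuclear ratio of 0.990 (0.972 to 1.01). The 2 B-type lamins parted: LMNB1 had a ratio of 0.838 (0.785 to 0.896), whereas LMNB2 lay at 2.10. LMNA stood at 0.736 (0.716 to 0.756) and KRT18 at 1.76 (1.68 to 1.83), while the median over all genes was 1.08. Between the nuclear and the total library no member was past 2-fold, higher (1.41% of all genes) or lower (3.45%).

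**Figure D2:**
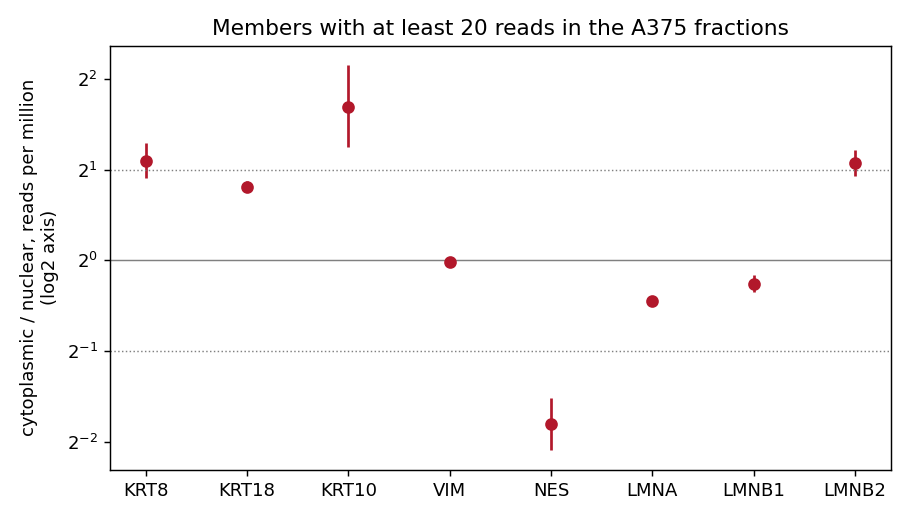
Cytoplasmic over nuclear CPM in A375 (log2 axis) for the 8 genes with at least 20 reads, 1 library per fraction, with exact 95% intervals; dotted lines mark 2-fold. NES lies at 0.287 and KRT10 at 3.22, with VIM at 0.990.

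The share of LMNA transcripts that took the lamin A splice was measured as reads of intron 10 per 100 reads of intron 9 (chr1:156137233-156137653), which lamin A and lamin C share. A375 total RNA gave 20.3 (168 against 827 reads; exact interval 17.1 to 24.0), the nuclear fraction 21.1 (17.6 to 25.2) and the cytoplasmic fraction 22.4 (20.2 to 24.8). HEK293 gave 19.5 (22 against 113 reads; 11.7 to 30.9). Wild-type HUES66 gave 9.89 (9 against 91 reads; 4.38 to 19.6), and the 14 doxycycline-treated libraries summed gave 13.8 (90 against 654 reads; 10.9 to 17.2).

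The odds of intron 10 to intron 9 in A375 were 2.05 times those in wild-type HUES66, with a 95% interval of 1.01 to 4.73, close to including 1. The next lamin A intron, intron 11, gave 19.7 per 100 of intron 9 in A375 (16.6 to 23.3) and 15.4 in wild-type HUES66 (8.09 to 27.2), intervals that overlap widely. For A375 against HEK293 the odds of intron 10 to intron 9 were 1.04 times (0.634 to 1.78), and for cytoplasm against nucleus 1.06 times (0.865 to 1.31). No difference was detectable in either comparison at this depth. The measure is a ratio of read counts and not a molar share of the isoforms.

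**Figure D3:**
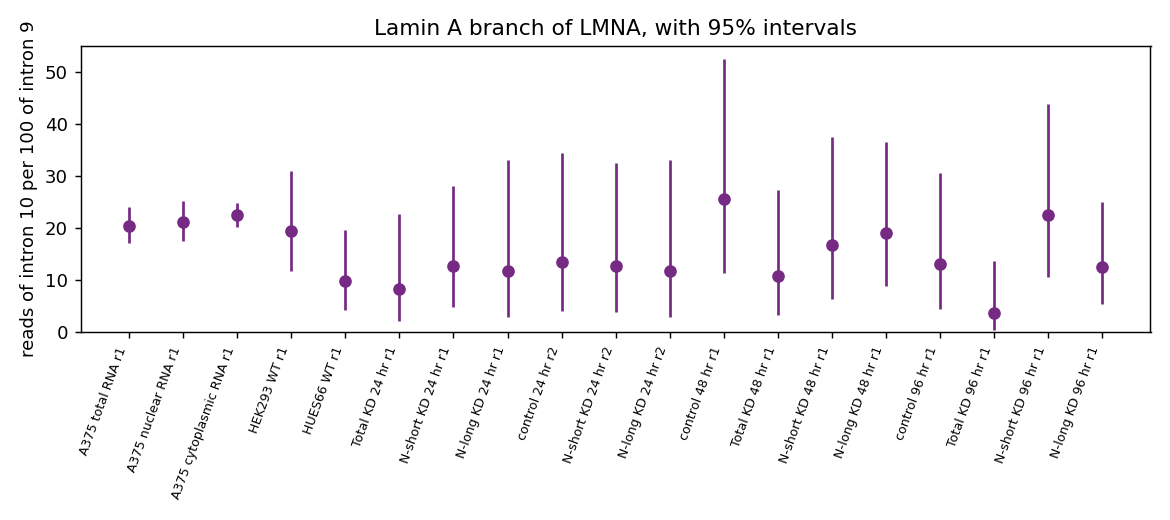
Reads of LMNA intron 10 (lamin A only) per 100 reads of intron 9 (lamin A and lamin C) in each of the 19 libraries, with exact 95% intervals; r1 and r2 are replicate numbers. A375 libraries lie between 20.3 and 22.4, and single HUES66 libraries, with 2 to 11 intron 10 reads, between 3.64 and 25.6 with wide intervals.

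Among the doxycycline-treated HUES66 libraries, intron 10 per 100 of intron 9 was 17.2 in the summed controls (10.3 to 27.5) and 7.38 in total KD (3.61 to 13.6). The summed isoform knockdowns gave 16.2 for N-short (10.6 to 23.9) and 14.1 for N-long (9.16 to 21.1). Usage of intron 10 within LMNA changed by -1.17 (log2) in total KD against control, with an unadjusted p of 0.034 and an adjusted p of 1 (edgeR diffSpliceDGE over all introns). Intron 11 differed in the other direction by 0.45 (adjusted p of 1), so the 2 lamin A introns differed in opposite directions. By time, intron 10 per 100 of intron 9 was 17.8 at 48 hr (11.9 to 25.9) and 12.6 at 96 hr (8.19 to 18.7). Intron 11 gave 21.1 (14.5 to 29.9) and 8.56 (5.06 to 13.7). In 96 hr against 48 hr, usage of intron 11 changed by -0.83 (log2; edgeR diffSpliceDGE adjusted p 0.71). Usage of intron 9, the base of the measure, changed by 0.41 (adjusted p 0.28). No call was made for the lamin A branch in any contrast.

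None of 64 tested member introns passed in any of the 5 contrasts. Over all introns, 0.0646% passed for total KD, 0.00587% for N-short, 0.0269% for N-long, 0.0201% for N-long against N-short and 1.11% for 96 hr against 48 hr. At an unadjusted p under 0.05 there were 1, 0, 1, 1 and 6 member introns in the same order with edgeR, and 0, 1, 2, 4 and 7 with limma. In the authors' deposited table for each knockdown and time, 10 to 14 splicing events lay in these genes, none with an adjusted p under 0.05. The lowest was 0.679 in total KD at 96 hr. Few events of any gene passed, from 1 of 45826 (N-short KD at 96 hr) to 57 of 45644 (total KD at 48 hr), so nothing particular to these genes is read from this.

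KRT8 differed between lines in its upstream introns, 8 of which lie beyond the introns shared by its principal coding transcripts, toward KRT18, its neighbour on the opposite strand. They held 19.4% of KRT8 reads in A375 total RNA (92 of 474; 95% Wilson interval 16.1 to 23.2), 20.1% of nuclear and 25.7% of cytoplasmic KRT8 reads. In HEK293 the share was 0.647% (27 of 4171; 0.445 to 0.940) and in wild-type HUES66 0.696% (56 of 8043; 0.537 to 0.903). A share also depends on the other KRT8 reads. The introns shared by its principal coding transcripts stood at 48.4 CPM in A375, 461 in HEK293 and 302.5 in wild-type HUES66. The gap between lines in share is thus wider than that in upstream reads scaled to library total. The most used of them, at chr12:52948829-52949455, overlaps the start of KRT18 (chr12:52948871-52952901) and had 58 reads in A375. Of reads at its upstream end it took 96.7% in A375 (58 of 60) and 48.8% in wild-type HUES66 (20 of 41; 34.3 to 63.5), the rest joining chr12:52905028-52949455, which leads into the KRT8 body. Counting only the introns of the reference transcript, the A375 to HEK293 ratio of KRT8 was 0.106 in place of 0.130. In 96 hr against 48 hr, 3 of these introns had usage changes of -0.92 to -1.17, with adjusted p of 0.24 to 0.33 (edgeR diffSpliceDGE), and none passed. At another upstream end in A375, chr12:52949518-52949714 held 74.2% of 31 reads and chr12:52949579-52949714 held 22.6% (11.4 to 39.8).

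In LMNA, the annotated 52-base intron at chr1:156114912-156114963 had 14 reads in the A375 whole-cell library and 41 in the cytoplasmic one, but 0 in the nuclear one, in HEK293 and in every HUES66 library. LMNA as a whole stood at 1069 CPM in A375 total RNA, against 108 in HEK293 and 31.5 in wild-type HUES66. The doxycycline-treated libraries lay between 28.8 and 40.9. With so few LMNA reads, 0 in HEK293 or in a single HUES66 library does not show that the intron was unused there. The A375 nuclear library held 7416 LMNA reads against 8434 in total RNA, so this limit does not cover its 0. That difference was not tested.

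Vimentin differed most of the members between 48 and 96 hr. At 48 hr VIM stood at 149 CPM in control, 138 in total KD, 160 after N-short and 158 after N-long knockdown. At 96 hr the same conditions stood at 659, 410, 767 and 599. The 2 times did not overlap. At 24 hr the 6 libraries lay between 286 and 323, above those of 48 hr, and wild-type HUES66 stood at 339. The 24 hr libraries are of other library series than those of 48 and 96 hr. Time and series therefore cannot be told apart there, and no time course is read from the 24 hr values. VIM rose by 2.04 (log2; SE 0.06) from 48 to 96 hr, with an adjusted p of 4.2e-19 (edgeR quasi-likelihood, knockdown as a term), and the ratio was 4.43 in control, 2.98 in total KD, 4.79 after N-short and 3.78 after N-long knockdown.

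Of 9 members tested (KRT17 was below the count filter), 7 were called higher at 96 hr and none lower, against 59.2% of all 13415 genes called, 29.2% higher and 29.9% lower. Beside VIM these were LMNB1 at 0.37 (SE 0.03, adjusted p 5.3e-11), KRT18 at 0.19, NES at 0.19, LMNB2 at 0.17, KRT19 at 0.14 and KRT8 at 0.10 (all log2, edgeR adjusted p of 0.032 or less). LMNA, at 0.03, and KRT10, at 0.00, did not pass. The median over the 9 members was 0.17 and over all genes -0.01. Without TMM scaling, an alternative added after seeing the data, 4 members remained called (KRT18, VIM, LMNB1, LMNB2), while KRT8 gave 0.05 with an edgeR adjusted p of 0.19. In that setting 7865 of 13415 genes were called, 3189 higher and 4676 lower, and the median of all genes was -0.07. LMNB1 rose in each of the 4 conditions, from 353 to 461, 371 to 442, 358 to 455 and 361 to 434 CPM (control, total, N-short, N-long).

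The 48 hr and 96 hr libraries are 1 library set each, so time cannot be told apart from anything else that differed between the sets. Of 3 nuclear RNA markers tested, MALAT1 (1.77, log2; SE 0.21) and PVT1 (0.19; SE 0.07) were higher and OIP5-AS1 (-0.23; SE 0.09) lower. The summed level of the list was 45.9 to 56.3 CPM at 48 hr and 50.8 to 57.0 at 96 hr, and its part in these results was not tested.

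**Figure D4:**
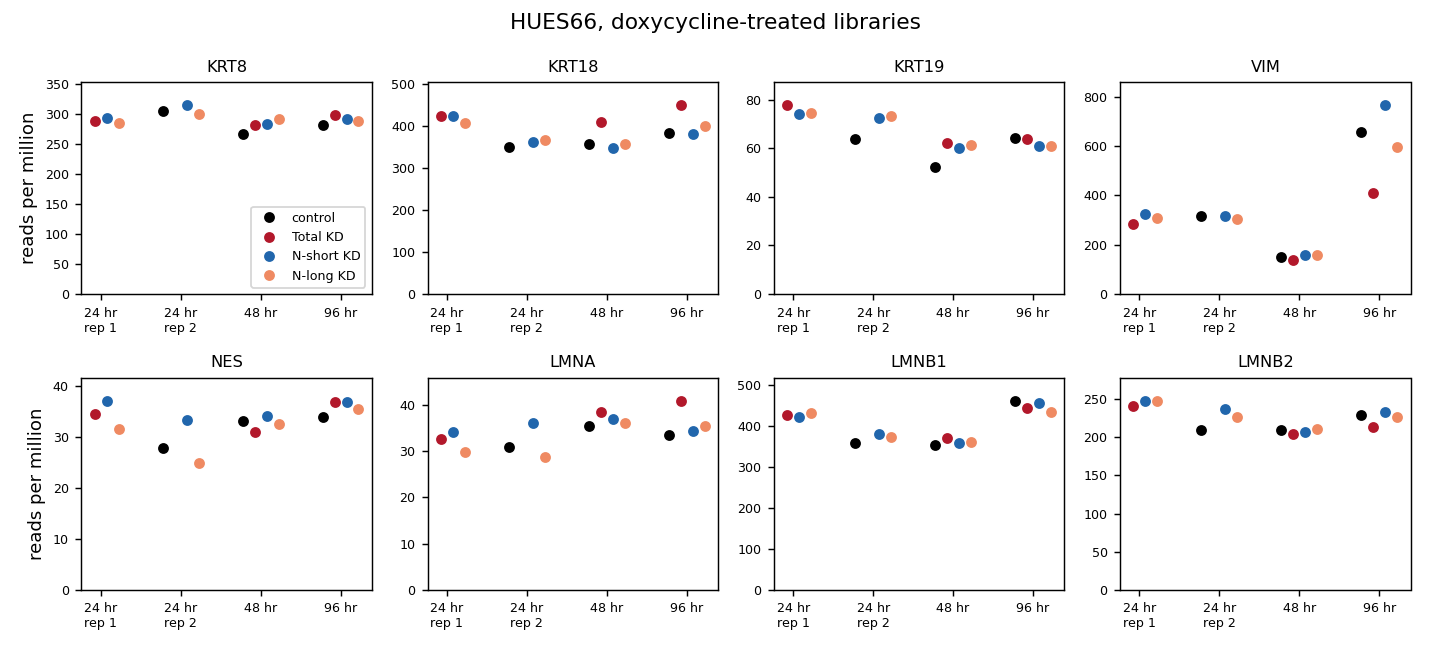
Spliced-read CPM in the 14 doxycycline-treated HUES66 libraries for 8 of the 10 genes, by library set and coloured by knockdown; each point is 1 library and axes start at 0. VIM lies between 138 and 160 at 48 hr and between 410 and 767 at 96 hr.

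Related gene lists were counted over the same 48 to 96 hr contrast, in which 29.2% of all 13415 genes were called higher and 29.9% lower. With so many genes called, nothing particular to a list is read from its counts. Of 20 tested nuclear lamina partners, 11 rose and 3 fell, with a median of 0.20 (log2). The largest rises were ZMPSTE24, the protease that trims prelamin A, at 0.67 (SE 0.05), and FNTB, a subunit of the farnesyltransferase that modifies lamins, at 0.60 (SE 0.24); the falls were led by SUN2 at -0.65 (SE 0.10) and SUN1 at -0.20 (SE 0.04), which tether the nucleus to the cytoskeleton. Of 11 tested linker proteins of intermediate filaments, 3 rose and 6 fell, with a median of -0.20. Desmosomal DSC2 rose by 0.46 (SE 0.04) and JUP by 0.41 (SE 0.04), and periplakin PPL fell by 0.64 (SE 0.06) and plakophilin PKP2 by 0.63 (SE 0.06). Of 7 other intermediate filament genes tested, NEFM rose by 0.75 (SE 0.21) and KRT7 fell by 0.57 (SE 0.19). Pluripotency markers moved both ways, with 5 of 9 higher, led by DNMT3B at 0.81 (SE 0.03) and L1TD1 at 0.48 (SE 0.03), and 2 lower, DPPA4 at -0.14 (SE 0.03) and POU5F1 at -0.09 (SE 0.03). Neural markers had 3 of 3 tested higher, OTX2 by 0.92, TUBB3 by 0.88 and DCX by 0.56, while their summed level went from 9.64 to 14 CPM at 48 hr to 16.2 to 26.3 at 96 hr; NEUROG2 had 0 reads at both times, SOX1 has no intron and so cannot be counted, and the part of the list in the VIM result was not tested.

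RBFOX2 knockdown moved few of these genes. In total KD, 2 of 9 members were called, against 2.2% of 13628 genes (1.01% higher, 1.19% lower): KRT18 was higher by 0.17 (log2; SE 0.04, edgeR adjusted p 0.014) and VIM lower by 0.37 (SE 0.08, adjusted p 0.0031). KRT18 stood at 410 in total KD against 358 in control at 48 hr and at 449 against 383 at 96 hr. In the 24 hr set without a control it stood at 423 in total KD, beside 423 after N-short and 408 after N-long knockdown. VIM stood at 138 against 149 at 48 hr and 410 against 659 at 96 hr, ratios of 0.926 and 0.622, and at 24 hr total KD, which has no control in its set, stood at 286 beside 323 in N-short and 308 in N-long KD.

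Both calls rest on few libraries. Without a replicate block (time in place of library set) adjusted p was 0.19 for KRT18 and 0.24 for VIM. Without the total KD library of 96 hr VIM differed by -0.16 (adjusted p 0.22) and KRT18 differed by 0.13 (adjusted p 0.17); without the control of 96 hr adjusted p was 0.094 and 0.10. DESeq2 kept KRT18 (adjusted p 0.015) and not VIM (adjusted p 0.17). KRT18 was also lost without the control of 24 hr replicate 2 (adjusted p 0.068) or the total KD of 48 hr (adjusted p 0.15). Taking wild-type HUES66, whose description bears the controls' name, as the control of 24 hr replicate 1 kept both calls.

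No member was called in either isoform knockdown, which does not show that their levels were equal. N-short KD called 0 of 9 members and 0% of all genes (537 at an unadjusted p under 0.05; DESeq2 called 7), and N-long KD 0 of 9 against 0.022% (0.00734% higher, 0.0147% lower). Against control, VIM differed by 0.07 in N-short KD (SE 0.07) and -0.06 in N-long KD (SE 0.07), and KRT18 by 0.02 (SE 0.04) and 0.04 (SE 0.04). N-long against N-short KD called 0 of 9, against 0.0147% (0.00734% in each direction), where NES differed by -0.17 (SE 0.07, edgeR adjusted p 0.91) and VIM by -0.13 (SE 0.06, adjusted p 0.95). Of the related lists in total KD, SYNE2 (-0.20) and SUN1 (-0.19), both nuclear envelope tethers, and the desmosomal plakin DSP (-0.26) were lower. These were 2 of 20 lamina partners and 1 of 11 linkers, where 1.01% of all genes were called higher and 1.19% lower. Of 9 pluripotency markers tested, TDGF1 (0.17; SE 0.04) and DNMT3B (0.15; SE 0.04) were called higher in total KD and none lower, and their part in the KRT18 and VIM results was not tested.

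**Figure D5:**
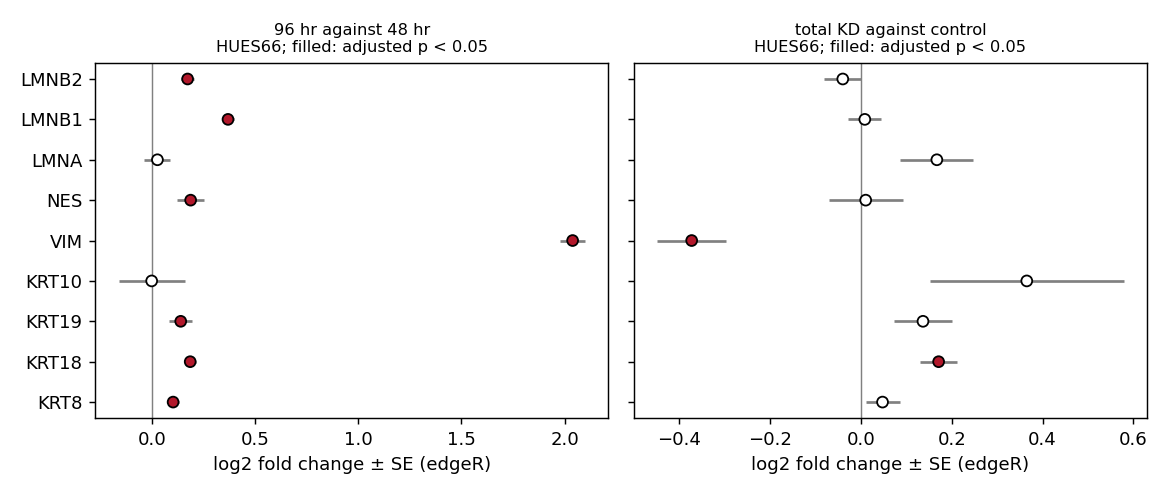
Log2 fold change with its standard error (edgeR) of the 9 tested genes, for 96 hr against 48 hr (left) and total KD against control (right); filled points have an adjusted p under 0.05. The x axes differ in range; VIM lies at 2.04 on the left and -0.37 on the right.

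Likeness of pattern was described across the 14 doxycycline-treated libraries after removing library set means, among 6634 genes of at least 20 CPM, as Pearson's r of log2 CPM. The libraries share controls and sets, so r is a description. VIM was close to GAA (0.948) and CHD7 (0.933). LMNA was closest to SPCS2 (0.897), FGF2 (0.881) and MICALL1 (0.881), and KRT8 to RBFA (0.852), GARNL3 (0.818) and ARHGAP12 (0.816). Among members, r was 0.272 for KRT8 with KRT18 and -0.823 for VIM with KRT18. Both changed sign with set means kept, to -0.055 and 0.28.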

How the data were processed

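The authors' deposited junction files hold raw counts of spliced reads per junction, and STAR 2.7.1, SAMtools 1.9 and hg38 are named per the submitters' processing notes; read filters are not given in the sources used here. The 9 tables of splicing comparisons hold the authors' p-values, adjusted p-values and, per the file headers, inclusion differences, a unit other than counts. Of their per-library columns, 69 were not used. Counts on annotated introns (GENCODE 29) of 1 gene were summed per gene.

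HUES66 doxycycline-treated libraries were fitted with edgeR 4.0.16 (R 4.3.3; TMM, filterByExpr, quasi-likelihood, library set and knockdown as terms; 96 hr against 48 hr with knockdown as a term). Intron usage was tested with diffSpliceDGE, and p-values were adjusted by Benjamini-Hochberg with a threshold of 0.05. After each knockdown group's mean was subtracted, pairs of different knockdowns had a median correlation of 0.744 within sets (18 pairs) and -0.283 between sets (55 pairs). Where sets differ, that subtraction itself pushes pairs of different sets toward negative values, so the sign of -0.283 is not read further. Library names in the labels give the sets. DESeq2 1.42.0 and limma 3.58.1 were alternatives. Single libraries have exact Poisson or binomial intervals at 95%, and a fold was counted past 2. Tests were tried on simulated data. Named genes are all members, plus the 2 highest and 2 lowest among those passing in each other list; introns named hold 5% to 95% of at least 20 reads at a shared end; the 52-base LMNA intron was chosen after its values were seen. The members and lists were chosen with earlier results of these data known. A few items that these rules would name are not reported here.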

Additional observations from a re-analysis of the deposited data

Results flagged for a closer look

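In N-long KD libraries the lamin A measure, intron 10 per 100 reads of intron 9, was 19 at 48 hr (11 against 58 reads), far from 11.8, 11.8 and 12.5 in the other 3 libraries for a group of 4. Chance flags about 1 group in 20 in this way. The 10 genes and the lamin A measure were each examined in 2 knockdown groups of 4, and the 95% interval of that library was 8.98 to 36.5.

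Junctions on the strand of these genes, within their bounds, that match no intron of GENCODE 29 were not part of any comparison; those given here reached 10 reads in 1 library. In VIM, chr10:17233683-17233778 had 20 reads in A375 cytoplasmic RNA, 11 in A375 total RNA, 8 in HEK293 and 8 in wild-type HUES66, and chr10:17235390-17237229 had 13 in A375 cytoplasmic and 8 in nuclear RNA. LMNB2 had 12 reads at chr19:2444541-2456684 in wild-type HUES66 and 49 over the 14 doxycycline-treated libraries. KRT8 had 11 reads at chr12:52900063-52900587 in control at 48 hr, 10 in HEK293 and 6 in wild-type HUES66, where the annotated intron begins at 52900066, and 14 at chr12:52949078-52949364 in total KD at 96 hr and none elsewhere. NES had 12 reads at chr1:156670834-156670964 in wild-type HUES66 and 12 at chr1:156670117-156670228 in control at 96 hr.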

How the results depend on the processing

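The count of 2 members called in total KD fell to 0 with no replicate block and to 1 with DESeq2, and ranged from 0 to 2 when single libraries were left out. The 7 members called in 96 hr against 48 hr became 4 without TMM scaling. In HEK293 against wild-type HUES66 the members past 2-fold lower went from 1 to 3 with TMM-scaled sizes. Of the other counts of members or introns called, 160 stayed within 1.5 times; with no replicate block no other count of members changed by more. Member fold changes gained or lost no call in 773 cases, which include 44 uncalled values that changed sign. In 19 cases the call was lost, including KRT19 and NES at 96 hr with DESeq2. It was also lost for KRT19 without the control of 48 or 96 hr and for NES without the total KD of either time. The lamin A measure stayed within its interval in 12 of 12 alternatives, for the single untreated libraries and the summed doxycycline-treated ones. The summed knockdowns left their intervals when intron 11 replaced intron 10. Total KD gave 20.1 (interval 3.61 to 13.6), N-short KD 8.65 (10.6 to 23.9) and N-long KD 9.09 (9.16 to 21.1). The summed controls stayed within theirs, at 14.75 (10.3 to 27.5). With the mean of upstream introns as the base, each of these groups stayed within its interval. Single HUES66 libraries held 2 to 11 intron 10 reads, too few to compare knockdowns. Single libraries per line and fraction have no replicate check.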
